A study of Homo sapiens with 50 samples.

Results

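The far end of the long arm of human chromosome 19 is densely packed with zinc finger genes. On the array used here, 144 features (a feature is a probe sequence, whose repeated spots were averaged) of 100 genes with names beginning with ZNF lay on this chromosome beyond position 52000000 of the hg19 build, out of 34127 features of 25940 gene names. The rule takes names and positions and no measured level, although the region was picked with earlier results of these data known. The features reached from position 52092551 to 58992591. Of these genes, 62 had 1 feature, 32 had 2 and 6 had 3. A filter on low signal was passed by 115 of the 144 features, from 84 genes, and 16 genes had no feature that passed.

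RNA had been taken 4 hours after irradiation from H1299, a line from a human lung carcinoma of the non-small cell type, and from H1299shRAD9, the same line with a stably integrated retroviral short hairpin RNA against RAD9 mRNA, selected with puromycin. RAD9 is a subunit of the 9-1-1 complex, which is loaded onto damaged DNA in checkpoint signaling. Its knockdown cells came from 2 stable transfectants that were used interchangeably, and the sample labels do not say which of them gave each sample. Confluent cells on concentric Mylar dishes received 1 Gy of α particles in such a way that some cells were hit and their neighbours in the same dish, the bystanders, were not. In each line, CTL denotes sham-irradiated cells. DBP denotes directly irradiated cells of dishes whose bystanders showed raised micronuclei, and BP those bystanders. DBN and BN denote the irradiated and bystander cells of dishes in which the bystanders did not show this rise. Micronuclei, fragments of chromosomes outside the nucleus, were thus used to sort dishes into groups before RNA was compared. All 10 groups had 5 arrays each.

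Most ZNF genes of this region encode proteins with a row of C2H2 zinc fingers, each of which holds a zinc ion and contacts a few bases of DNA, and many carry a KRAB domain at the other end. The KRAB domain recruits TRIM28, which in turn brings the histone methyltransferase SETDB1, HP1 proteins and the NuRD complex, so that the bound site is silenced. Many of these proteins bind transposable elements. The genes arose by repeated tandem duplication, so that neighbours are close in sequence, and an array probe for a given member can resemble other members.

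The likeness of the probes to one another was therefore examined first. They were not compared with the transcripts of the other genes, so short shared runs do not show that a probe matches its own gene only. Each of the 144 probes was 60 bases long, and the longest run of bases shared with a probe of another gene of the region had a median of 10 bases. In all, 6 probes shared 18 or more bases with a probe of another of these genes. The longest run, 23 bases, joined ZNF28 and ZNF761. ZNF480 and ZNF610, which lie close together, are followed in most of the results below and shared 18 bases. Their probe sequences are printed with this run in capitals. The ZNF480 probe lies at chr19:52826052-52826111 (hg19, plus strand) and ends in a stop codon when read in its open frame. From the ZNF610 probe at chr19:52870021-52870080 (plus strand), bases 24 to 53 are shown.
ZNF480: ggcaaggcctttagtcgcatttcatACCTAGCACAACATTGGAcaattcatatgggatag
ZNF610: attcacACCTAGCACAACATTGGAggactc
How far RNA of a neighbour binds such a probe was not measured on these arrays. Of the 144 probes, 18 could be read in an open frame that holds a fixed string of amino acids common in C2H2 fingers, such as CGKAF or TGEKP. The fingers are the part in which paralogs are most alike. Finger sequence without these exact letters was not counted, so the count can miss probes that lie in fingers. The ZNF480 probe was not among the 18. In its open frame, however, this probe begins with the letters of CGKAF that follow the C. A leucine and histidines come after them at the spacing of a C2H2 finger. The ZNF480 probe thus reads as finger sequence, and the run shared with ZNF610 lies within this stretch. The reading was not compared with a protein sequence.

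Some short sequences were more frequent in the promoters of these genes than over all promoters. For 85 of the 100 genes, RefSeq (GRCh38.p14) gave the 250 bases before the transcription start. These held a median of 19 CG dinucleotides, against 11 over all 35116 promoters of the same length. The letters CCGGAAG, the core of many ETS factor sites, were found on either strand in 36.5% of the 85 promoters and in 8.52% of all promoters. The GC box letters GGGCGG were found in 67.1% against 42.6%, CCAAT in 45.9% against 32.0%, and the YY1 letters AAGATGGC in 5.88% against 1.36%. Promoters of ZNF genes elsewhere were not examined in this way, so these shares are not shown to be particular to the region. As examples, the promoters of ZNF880 and ZNF814, whose line differences ran in opposite directions, are printed with each CG in capitals. That of ZNF880 lies at chr19:52369673-52369922 (plus strand), has 17 CG dinucleotides, and holds the GC box and CCAAT letters but not CCGGAAG. That of ZNF814 lies at chr19:57889038-57889287 (minus strand), has 13 CG dinucleotides, and holds CCGGAAG but not the GC box or CCAAT letters.
ZNF880: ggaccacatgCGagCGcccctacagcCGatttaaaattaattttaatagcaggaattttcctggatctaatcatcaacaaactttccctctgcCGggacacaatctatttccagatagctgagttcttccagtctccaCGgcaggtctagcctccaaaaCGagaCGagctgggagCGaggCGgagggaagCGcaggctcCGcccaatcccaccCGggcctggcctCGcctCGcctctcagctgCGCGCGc
ZNF814: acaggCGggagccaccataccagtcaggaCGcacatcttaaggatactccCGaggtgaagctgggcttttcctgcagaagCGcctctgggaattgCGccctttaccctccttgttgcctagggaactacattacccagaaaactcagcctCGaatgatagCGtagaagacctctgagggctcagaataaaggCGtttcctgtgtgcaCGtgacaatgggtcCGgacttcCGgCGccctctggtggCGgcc
Such matches describe letters only and do not show that a factor binds.

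Signal is given below as a log2 level, which is log2 of the background-subtracted intensity minus the median of the array, so that 0 is the level of the median probe of that array. Because probes differ in how well they bind, levels are compared between samples for the same feature and not between genes. In bulk RNA, fewer cells with a transcript and less transcript per cell cannot be told apart. The members were dim: the mean level over the 50 arrays had a median of 0.95 for the 115 features, against 2.40 for all 20078 features that passed. It ran from -1.97 for the dimmest (ZNF615) to 11.3 for the brightest (ZNF865). Between 103 and 135 of the 144 features were well above background on an array.

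The cell line markers VIM, KRT8 and KRT18 were above background on all 50 arrays. Of the lung epithelial markers, NKX2-1 was above background on 25 arrays and SFTPC on 48, at a low median level of -1.02. TRIM28, the partner of KRAB proteins, was above background on all 50 arrays too, at a median log2 level of 6.33. RAD9A was lower in H1299shRAD9 CTL (3.14 ± 0.18, SD, n = 5) than in H1299 CTL (3.45 ± 0.13, n = 5), by 0.30 on the log2 scale (exact permutation p = 0.0159, 2-sided). The line differences of RAD9A in DBP, BP, DBN and BN were -0.31, -0.10, 0.06 and -0.08 (exact permutation p = 0.0873, 0.444, 0.802 and 0.611). The arrays lay on 13 slides, of which 2 held both lines and none held both CTL groups, so slide and line cannot be told apart for CTL. An index of how 5′ and 3′ probes of the same gene compared (over 3281 genes with several features, the median difference in log2 level between the feature nearest the 5′ end and that nearest the 3′ end) was between -1.66 and -1.57 in H1299shRAD9 CTL and between -1.58 and -1.39 in the other 20 H1299shRAD9 arrays. Replicate 2 of H1299 DBP, DBN and BP had the lowest index of all 50 arrays (-1.87, -1.79 and -1.76), and the main values that include them are given with and without them below.

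The first comparison asked how the zinc finger genes differed between the lines without irradiation. In CTL, 16 of the 115 features, from 15 genes, differed between H1299shRAD9 and H1299 (limma, p under 0.005 and false discovery rate under 10%), 7 higher and 9 lower in H1299shRAD9. Over all 20078 features, 14.2% differed, 9.36% higher and 4.79% lower, so the share among the members (13.9%) was near the background and is not a result about the members. The shares of members higher and lower were 6.09% and 7.83%. Their median log2 difference was 0.02, against 0.12 over all features. At an unadjusted p under 0.05, 33 members (28.7%) and 36% of all features differed. The split between higher and lower depended on the scaling of the arrays: with each array scaled to its 75th percentile, 4 of 14 members and 1148 of 2517 features in all were higher, where median scaling had 1880 of 2842 in all. Under that scaling the median difference over all features was 0.03.

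Both directions were found along the chromosome, with most of the lower calls up to position 55000000 and most of the higher calls beyond it. Up to position 55000000, 8 of 51 features were lower and 2 higher in H1299shRAD9 CTL, with a median log2 difference of -0.05. Beyond it, 1 of 64 was lower and 5 were higher, with a median of 0.11. Up to that position 15.7% were lower and 3.92% higher, and beyond it 1.56% and 7.81%. Over all features these shares were 4.79% and 9.36%. The lower calls up to that position include 2 features of ZNF880. Of the 115 features, 4 were well above background on fewer than 75% of the H1299shRAD9 arrays and passed the filter through H1299, and 3 of these were among the 9 lower calls (ZNF615, ZNF432 and ZNF671). Without the 4, an alternative added after the data had been seen, 6 of 48 features were lower and 2 higher up to position 55000000, and 0 of 63 were lower and 5 higher beyond it. Genes of other names in the same region had 17 of 118 features called, all of them higher, with a median of 0.22. ZNF genes elsewhere on chromosome 19 had 9 of 174 called (median -0.03), and ZNF genes of other chromosomes 36 of 314 (median 0.07). These counts are a description, without a test of the difference between the sets. At the boundary of the region, the last ZNF features before it, ZNF114 and ZNF473, had log2 differences of 0.03 ± 0.11 (SE) and 0.16 ± 0.13, and the first beyond it, ZNF175 and ZNF577, 0.30 ± 0.18 and 0.70 ± 0.29, none of which passed the thresholds.

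**Figure D1:**
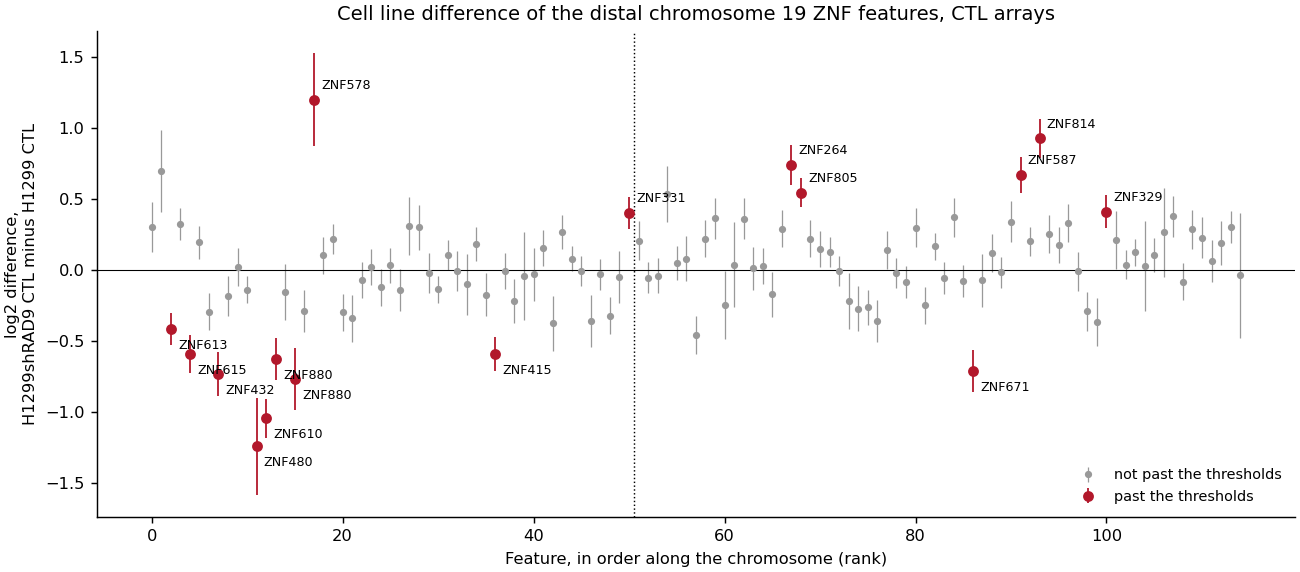
Log2 difference between H1299shRAD9 CTL and H1299 CTL (y axis) of the 115 features that passed the filter, in their order along chromosome 19 (x axis, rank). Bars are the standard error, red points passed the thresholds, and the dotted line marks position 55000000. Of the 10 red points left of the line, 8 are below 0, and of the 6 right of it, 1 is.

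Among the genes lower in H1299shRAD9 CTL, ZNF610 had the smallest p-value. Its log2 levels were 0.35, 0.17, -0.24, -0.09 and -0.13 in H1299shRAD9 CTL and 0.83, 1.27, 1.17, 1.02 and 0.99 in H1299 CTL. Every H1299shRAD9 array was below every H1299 array, and the difference was -1.04 ± 0.14 (SE, limma, Benjamini-Hochberg adjusted p = 0.00134), that is 48.5% of the H1299 level. Its neighbour ZNF480 had the largest difference, but with wider groups. ZNF480 was at -1.60, -2.72, -1.88, -2.17 and -1.70 in H1299shRAD9 CTL and at -1.94, -0.63, -0.34, -1.06 and 0.11 in H1299 CTL. The groups overlapped, since replicate 1 of H1299 CTL was as low as the knockdown arrays, and the difference was -1.24 ± 0.34 (adjusted p = 0.0285). It was -0.48, and no longer past the thresholds, when the 5′ to 3′ index of the array was added to the fit, and -0.64 with another background correction (normexp).

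ZNF880, next to ZNF610 on the chromosome, was measured by 3 features. The brightest had 1.84, 1.85, 2.15, 1.66 and 1.62 in H1299shRAD9 CTL against 2.19, 2.81, 2.63, 2.32 and 2.30 in H1299 CTL, without overlap. This was a difference of -0.63 ± 0.15 (adjusted p = 0.0173). The dimmest of the 3 differed by -0.77, and the remaining feature by -0.16, which did not pass. ZNF613, ZNF432 and ZNF415, with 1 feature each, were lower by 0.42, 0.73 and 0.59 on the log2 scale without overlap. ZNF613 lost its call in 9 of 16 alternative settings. ZNF432 was dim, and was well above background on 1 of 5 H1299shRAD9 CTL arrays but on 5 of 5 H1299 CTL arrays. It passed the filter on low signal only through H1299 (25 of 25 arrays, against 14 of 25 in H1299shRAD9), and its difference was -0.20, not past the thresholds, with normexp. For ZNF615 and ZNF671, the feature that was lower (-0.59 and -0.71) was the dimmer of 2 and was well above background on 1 and 2 of the 5 H1299shRAD9 CTL arrays. These features too passed the filter only through H1299 (25 and 24 of 25 arrays, against 14 of 25 each), and gave -0.12 and -0.22 with normexp, neither past the thresholds. The brighter feature gave 0.33 for ZNF615 and -0.08 for ZNF671, and neither passed the thresholds.

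The genes higher in H1299shRAD9 CTL were ZNF814, ZNF264, ZNF587, ZNF805, ZNF329, ZNF331 and ZNF578. ZNF814 had log2 levels of 1.84, 1.99, 2.05, 1.82 and 1.90 in H1299shRAD9 CTL and 1.31, 0.62, 0.81, 1.07 and 1.16 in H1299 CTL. The groups were well apart, by 0.93 ± 0.14 (adjusted p = 0.00256), a 1.90-fold difference. The other feature of ZNF814 differed by 0.25 and did not pass. ZNF264 was at 2.67, 2.80, 3.36, 3.12 and 3.20 against 2.45, 2.23, 2.29, 2.18 and 2.30, also without overlap (0.74 ± 0.14, adjusted p = 0.00777). ZNF805, the next of these features along the chromosome, was higher by 0.55 ± 0.10 (adjusted p = 0.0076), and ZNF331, an imprinted gene, by 0.40. The other passing feature of ZNF331, which was dimmer, differed by -0.05.

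For ZNF587, a feature was higher by 0.67 ± 0.13 (adjusted p = 0.00765) without overlap, while its brighter feature differed by 0.20 and did not pass. For ZNF329, likewise, the called feature was higher by 0.41 with overlapping groups, and the brighter feature differed by 0.21. ZNF329 lost its call in 13 of 16 alternative settings (lowest value 0.21), and ZNF331 in 11 of 15. ZNF578 was higher by 1.20 ± 0.33 (adjusted p = 0.0277), but replicate 5 of H1299shRAD9 CTL (0.22) lay far above the other 4 (-1.68 to -0.91). Without replicate 5 of both lines the difference was 0.75 and still passed. This feature was dim, well above background on 20 of 25 arrays of each line, and lost its call in 8 of 17 alternative settings. Over the 29 genes with several passing features, 7 had a called feature, 0 had all features called, and 11 had features whose differences ran in opposite directions. The features of a gene differed in this contrast by a median of 0.20 on the log2 scale.

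The same contrast was then taken within each irradiated or bystander group, on arrays that the CTL contrast did not use. In DBP, 3 members differed between the lines against 5.95% of all features, namely ZNF880 (-0.79), ZNF814 (0.86) and ZNF274 (0.47). ZNF274 is known to bring SETDB1 to the 3′ ends of zinc finger genes. In BP, 5 members differed against 7.71% of all features, namely ZNF610 (-0.74), ZNF444 (0.48), ZNF805 (0.70), ZNF551 (0.55) and ZNF814 (1.03). ZNF444 differs from most of its neighbours in carrying a SCAN domain, through which such proteins pair, in place of KRAB. In DBN, 3 members differed against 4.38% of all features, namely ZNF610 (-0.82), ZNF551 (0.89) and ZNF814 (0.97).

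BN had the most, with 9 members against 8.46% of all features. ZNF610 (-0.89), ZNF880 (-0.83), ZNF528 (-0.66, with overlapping groups) and ZNF415 (-0.56) were lower in H1299shRAD9. ZNF805 (0.57), ZNF552 (0.53), ZNF587 (0.69), ZNF814 (0.93) and ZNF497 (0.73) were higher. The other features of ZNF587 and ZNF497 differed by 0.41 and 0.25 in BN and did not pass. The shares of members in the 4 groups, 3, 5, 3 and 9 of 115, were below the background. With 75th percentile scaling 1 of 9 members was higher in DBP, 2 of 5 in BP, 0 of 4 in DBN and 4 of 8 in BN, against 2 of 3, 4 of 5, 2 of 3 and 5 of 9 with median scaling. Without replicate 2 of H1299, which stood apart, 4, 7 and 4 members were called in DBP, BP and DBN.

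**Figure D2:**
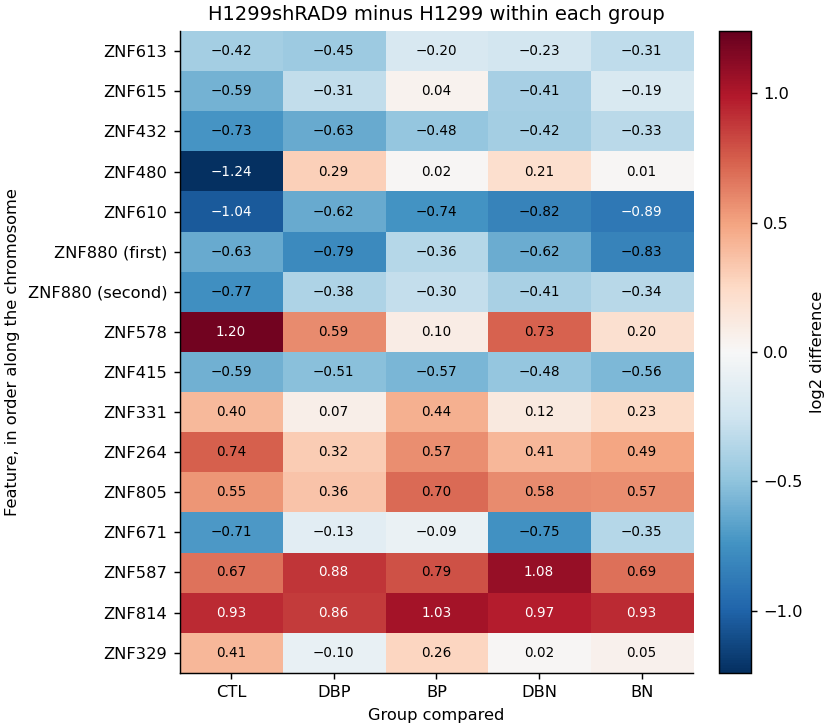
Log2 difference between H1299shRAD9 and H1299 (color, red higher and blue lower in H1299shRAD9) in each of the 5 groups (columns) for the 16 features called in CTL (rows, in order along the chromosome). ZNF610 and the 2 called features of ZNF880 are lower and ZNF814 and ZNF587 higher in every column, while ZNF480 is lower in CTL only.

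Of the 16 features called in CTL, 13 had the same sign in all 4 other groups and 6 passed the thresholds in at least 1 of them. Over all features called in CTL these shares were 88.5% and 56.1%, against 81.2% and 37.5% of the 16. ZNF814 was the only member past the thresholds in all 5 groups, where 1.58% of all features were. Over the 25 arrays of each line, ZNF814 ran from 1.47 to 2.24 in H1299shRAD9 (median 1.93) and from 0.46 to 1.45 in H1299 (median 0.96), so that the lines did not overlap at all. The other feature of ZNF814 was also higher in H1299shRAD9, by 0.42, 0.48, 0.45 and 0.50 in DBP, BP, DBN and BN, but did not pass the thresholds. ZNF814 and the called feature of ZNF587 were the 2 members with no overlap within any of the 5 groups, where 1.22% of all features had none. That feature of ZNF587 ran from 2.02 to 2.75 in H1299shRAD9 and from -0.22 to 2.01 in H1299, where the 3 lowest values were replicate 2 of DBP, BP and DBN (0.21, 0.46 and -0.22). Without these arrays its line difference in the 3 groups was 0.56, 0.53 and 0.70, where it had been 0.88, 0.79 and 1.08, and that of ZNF814 was 0.84, 0.95 and 0.91.

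ZNF610 and ZNF880 ran the other way. ZNF610 was between -0.47 and 1.00 in H1299shRAD9 (median 0.05) and between 0.34 and 1.37 in H1299 (median 0.96). Its line difference passed the thresholds in CTL, BP, DBN and BN and was -0.62 in DBP, which did not pass. Without replicate 2 of H1299 it was -0.52, -0.68 and -0.68 in DBP, BP and DBN. The brightest feature of ZNF880 was between 1.37 and 2.32 in H1299shRAD9 (median 1.84) and between 1.97 and 3.36 in H1299 (median 2.40). It passed in CTL, DBP and BN and was -0.36 and -0.62 in BP and DBN, the latter -0.39 without replicate 2 of H1299. Its other features did not pass outside CTL and disagreed, at -0.38 and 0.24 in DBP and -0.34 and -0.03 in BN, so the difference of ZNF880 depends on the feature. On the 1 slide that held a BP array of each line, the differences were 0.91 for ZNF814, 0.52 for ZNF587, -0.14 for ZNF610 and 0.04 for ZNF880. That is 1 array against 1, and the part of the slides in the line differences was not tested further.

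**Figure D3:**
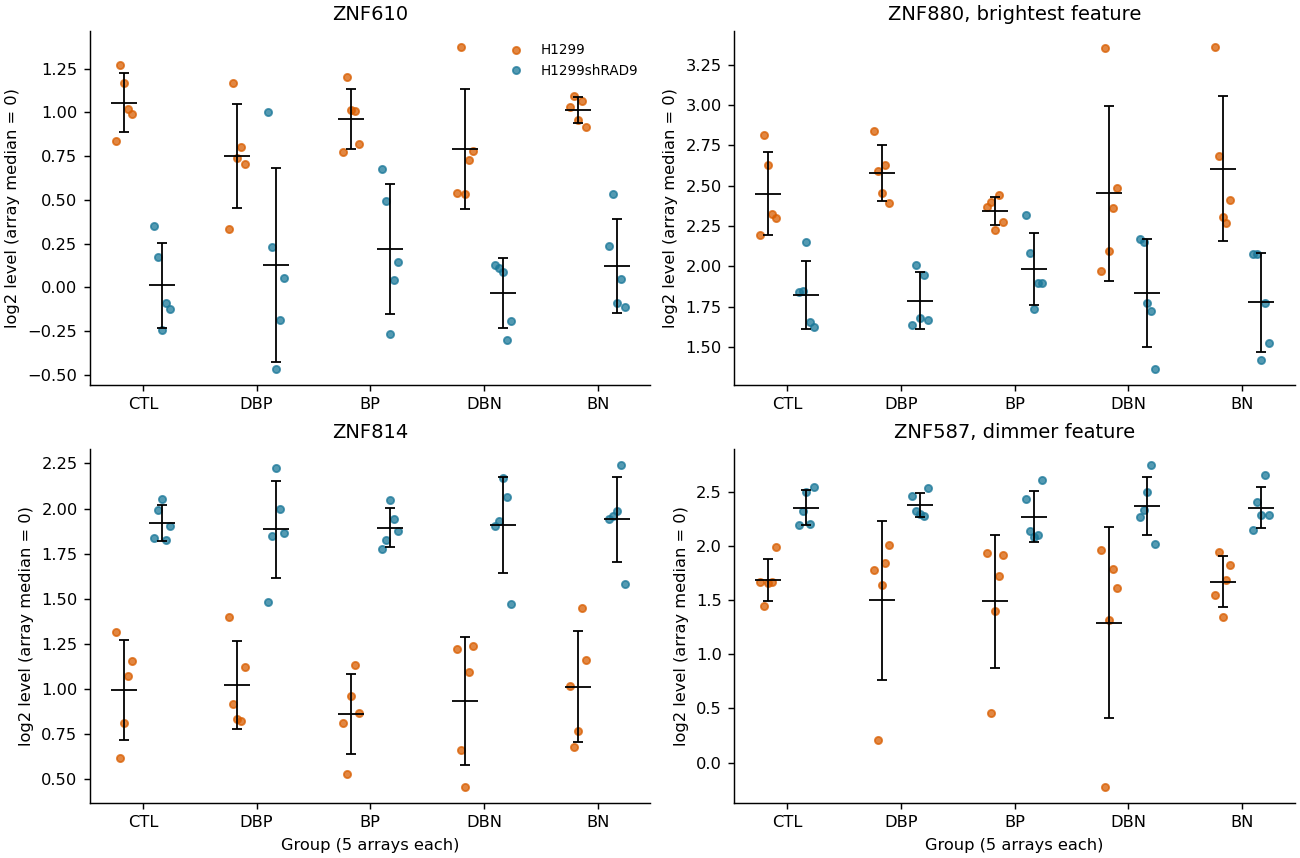
Log2 level (y axis, array median at 0) of ZNF610, ZNF880, ZNF587 and ZNF814 in the 50 arrays by group (x axis), with a point for each array, the mean as a line and the SD as a bar. The H1299shRAD9 points of ZNF814 are above those of H1299 in every group, and most of those of ZNF610 are below.

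The next comparisons asked what irradiation or exposure to irradiated neighbours did within each line. The 4 comparisons of a line share the same 5 CTL arrays, and their values are therefore given side by side only. In H1299shRAD9, 1 member was called in DBP (limma, with arrays matched by replicate number, p under 0.006 and false discovery rate under 10%), against 1.53% of all features. In BP it was 1 member against 1.35%, and in DBN 2 members against 2.74%. In BN 0 members and 6 of all features were called, with 23 of the 115 members and 13.4% of all features at an unadjusted p under 0.05. ZNF480 was the member called in DBP and BP and was called in DBN together with ZNF813.

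ZNF480, a KRAB zinc finger gene of the proximal stretch with 1 feature on the array, was the only member called in more than 1 of these groups. The authors had already picked this gene from the same arrays for its high fold change in H1299shRAD9 BP. That it stands out here is therefore not an independent result. Against the CTL values given above (-2.72 to -1.60), the levels of ZNF480 in H1299shRAD9 were -1.60, -1.42, -0.65, -0.76 and -0.68 in DBP. The lowest DBP array and the highest CTL array were level to 2 decimals, and DBP was higher in 5 of 5 pairs, by 1.00 ± 0.19 (SE, limma adjusted p = 0.0805), a 1.99-fold difference. In BP the levels were -0.20, -1.06, -1.51, -0.38 and -0.42, all above every CTL array, with a difference of 1.3 ± 0.18 (limma adjusted p = 0.0359). In DBN they were -1.43, -0.92, -0.30, -0.41 and -0.72, again all above CTL, by 1.26 ± 0.23 (limma adjusted p = 0.0694).

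BN gave a like value with more spread. The levels were -1.94, -0.13, -0.72, -0.03 and -1.07, of which that of replicate 1 was within the range of CTL. The difference of 1.24 ± 0.40 was in the same direction in 4 of 5 pairs and did not pass the thresholds (limma adjusted p = 0.269). On slides that held CTL arrays beside the group, ZNF480 was higher than CTL in each case, by 1.27 and 1.02 in DBP, 1.65 and 1.28 in BP, 0.73 in DBN and 0.22 and 0.63 in BN, with 1 array of the group against 1 or 2 of CTL. The calls did not pass when the replicate number was left out of the fit for DBP and BP, when replicate 2 or replicate 4 was left out in any of the 3 groups, when the slide took the place of the replicate number, or when no filter on low signal was used.

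In H1299, 0 members were called in any of the 4 groups, and over all features 7, 0, 2 and 0 were called in DBP, BP, DBN and BN. At an unadjusted p under 0.05 the members numbered 4, 5, 3 and 2 (3.48%, 4.35%, 2.61% and 1.74%, against 5.85%, 5.56%, 2.99% and 3.23% of all features). ZNF480 in H1299 was at -1.94, -0.63, -0.34, -1.06 and 0.11 in CTL. It was at -2.31, -2.43, -1.29, -0.35 and -0.18 in DBP and at -0.01, -1.84, -0.90, -0.04 and -0.86 in BP. It was at 0.34, -1.92, -1.19, -1.59 and -0.47 in DBN and at -2.40, -0.38, -0.73, -0.26 and -0.18 in BN. The 5 groups covered one another, with differences from CTL of -0.54, 0.05, -0.19 and -0.01 (limma adjusted p = 0.734, 0.992, 1.0 and 0.999). Without replicate 2 the differences in DBP, BP and DBN were -0.22, 0.36 and 0.08, and 0 members were called.

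**Figure D4:**
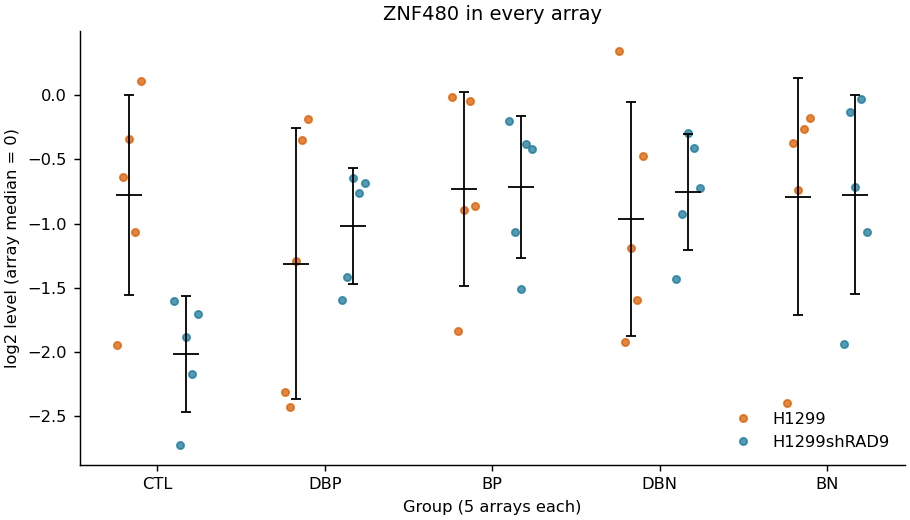
Log2 level of ZNF480 (y axis, array median at 0) in the 5 arrays of each group (x axis) in H1299shRAD9 and H1299, with the mean as a line and the SD as a bar. H1299shRAD9 CTL (-2.72 to -1.60) lies below DBP, BP and DBN of that line, and the H1299 groups cover one another.

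Whether the change from CTL differed between the lines was tested as an interaction. With limma, 0 members and 0 of all features were called in any of the 4 groups, and 12, 11, 7 and 8 members were at an unadjusted p under 0.05 for DBP, BP, DBN and BN (10.4%, 9.57%, 6.09% and 6.96%, against 7.9%, 6.34%, 6.97% and 6.18% of all features). For ZNF480 the difference between the lines was 1.53, 1.26, 1.45 and 1.25 on the log2 scale (limma adjusted p = 0.633, 0.787, 0.56 and 0.74). Without replicate 2 of H1299 it was 1.22, 0.94 and 1.18 in DBP, BP and DBN. A difference of the response of ZNF480 between the lines was therefore not established. In the 4 irradiated and bystander groups the line difference of ZNF480 was 0.29, 0.02, 0.21 and 0.01, against -1.24 in CTL, so that the differences within H1299shRAD9 and between the CTL groups rest on the same 5 arrays.

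Other values moved with ZNF480. The 5′ to 3′ index was lower in H1299shRAD9 CTL than in H1299 CTL by 0.10 (exact permutation p = 0.0317) and differed by 0.05, -0.07, 0.02 and 0.01 in DBP, BP, DBN and BN (exact permutation p = 0.595, 0.405, 0.905 and 0.905). ZNF480 itself has 1 feature and does not enter the index. Over the 25 H1299 arrays, its level went with the index (Pearson r = 0.76, permutation p = 6e-05, Spearman rho = 0.63, p = 0.00079), and r was 0.69 without the 2 arrays farthest from the median index. Over the 25 H1299shRAD9 arrays r was 0.49 (permutation p = 0.0133), rho was 0.37 (p = 0.0676), and r was 0.46 without the 2 farthest. These were among 46 such relations, of 23 features in each line, of which 20 had a Benjamini-Hochberg adjusted p under 0.05 (for ZNF480, 0.000394 and 0.0323). The 5 lowest arrays of the index were all of H1299. The permutations moved arrays freely within a line, without keeping groups or replicate numbers. In H1299shRAD9 the CTL arrays were low in both ZNF480 and the index. The relation was not examined within groups, and its p-values do not set differences between groups aside.

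With the index as a covariate the differences of ZNF480 in H1299shRAD9 were 1.22, 1.66, 1.52 and 0.86 in DBP, BP, DBN and BN, and 0 members were called in each. For ZNF814 r was 0.05 in H1299 and -0.11 in H1299shRAD9, and for ZNF610 -0.35 and -0.13. Larger values were found for other genes named above, such as ZNF331 (-0.87), ZNF613 (-0.88), ZNF264 (-0.86), ZNF329 (-0.83), ZNF587 (0.74) and ZNF497 (0.80) in H1299. The index thus went with the level of features in both directions, and its part in the differences was not tested beyond the covariate.

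**Figure D5:**
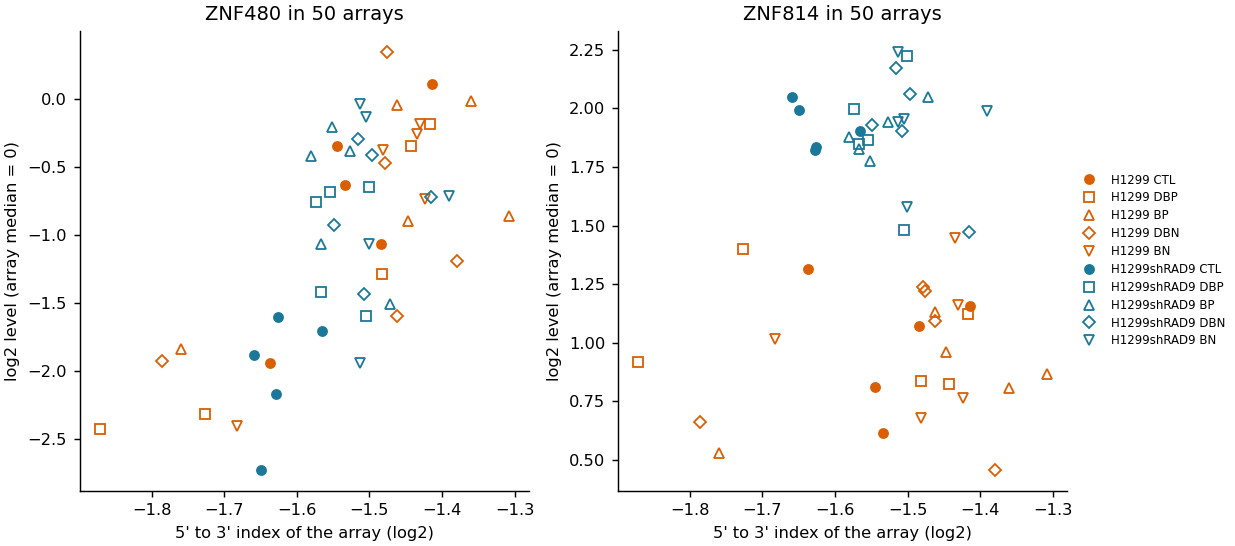
Log2 level of ZNF480 and ZNF814 (y axis, array median at 0) against the 5′ to 3′ index of the array (x axis, log2) in the 50 arrays. Filled points are CTL arrays. ZNF480 is higher on arrays with a higher index (r = 0.76 in H1299 and 0.49 in H1299shRAD9), and ZNF814 shows no such slope (r = 0.05 and -0.11).

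ZNF813, also of the proximal stretch, was the other member called in H1299shRAD9 DBN. Its called feature was at -1.08, -1.17, -1.24, -1.29 and -1.08 in CTL and -0.55, -0.38, -0.44, -0.65 and -1.05 in DBN. Every DBN array was above every CTL array, and the difference was 0.56 ± 0.13 (5 of 5 pairs, limma adjusted p = 0.0961). The value ranged from 0.29 to 1.64 over 18 alternative settings and lost its call in 11 of them. The 2 other features of ZNF813 differed by 0.19 and 0.23 and were not called. In BN the called feature was at -0.60, -0.20, -0.51, -0.74 and -0.77, which is also above CTL but did not pass.

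The proteins that KRAB zinc fingers recruit were examined as a list of 21 genes with 37 passing features. TRIM28 itself was not called in any comparison. In CTL, 7 of the 37 features were called between the lines, where 14.2% of all features were, with a median log2 difference over the list of 0.02 (0.12 over all features). UHRF1, which reads hemimethylated DNA, was higher in H1299shRAD9 by 0.74 with both features, as were the HP1 gene CBX1 (0.44) and PPHLN1 of the HUSH complex (0.86). DNMT3A, a de novo DNA methyltransferase, was lower with 2 of its 3 features (-0.92 and -0.52), as was CHD4, the ATPase of NuRD (-0.34).

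Against CTL in H1299shRAD9, 3, 4, 4 and 0 of the 37 features were called in DBP, BP, DBN and BN, where 1.53%, 1.35%, 2.74% and 0.0299% of all features were, and in H1299 0 in each. Another CBX1 feature rose by 0.65, 0.85 and 0.77 in the first 3. ATF7IP, a partner of SETDB1, rose by 0.45 and 0.72 in DBP and BP, DNMT3A by 0.76 and 0.90 in BP and DBN, and ATRX, a chromatin remodeler, by 0.58 in BP. DNMT3B fell by 0.64 and 0.62 in DBP and DBN, and PPHLN1 fell by 0.72 in DBN. DNMT3A and PPHLN1 had differed between the CTL groups in the opposite direction, and both contrasts use the same H1299shRAD9 CTL arrays. Neither gene was called between the lines in DBP, BP, DBN or BN. Between the lines, 1, 3, 1 and 3 of the 37 features were called in DBP, BP, DBN and BN. Over all features 5.95%, 7.71%, 4.38% and 8.46% were, so the list was near or below the background and the calls are not a result about it. The list medians were 0.10, 0.21, 0.28 and 0.18, against 0.13, 0.15, 0.16 and 0.16 over all features. UHRF1 was higher in H1299shRAD9 DBP (0.63) and BN (0.55), and CBX1 in BP (0.43) and BN (0.51 and 0.59). DNMT1 was higher in BP (1.37), and ATRX in BP (0.65) and DBN (0.78).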

How the data were processed

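RNA from 10 groups of 5 samples was labeled with Cy3 and hybridized to Agilent whole human genome arrays, whose file headers name hg19. The deposited files hold the intensity of each spot from Agilent Feature Extraction, which per the file headers had subtracted a fitted background. A second deposited table holds the authors' log2 values after their background correction and median normalization for 9502 features, of which 9476 were matched, 37 of them members. It served as an alternative. Set against the scanner values, those columns are log2 levels without centring (medians 8.86 to 9.30, correlation at least 0.999), and the constant of their scale was not determined.

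For the main analysis, processed intensities were converted to log2, the array median was subtracted, non-uniform or outlying spots left out, and the spots of a feature averaged. A feature was kept unless it failed or was not well above background on 25% or more of the 50 arrays (20078 of 34127 features). Between 55.4% and 83.4% of the features were well above background on an array, at a median intensity of 97.1 to 514. Levels near background are the least precise, and 5 arrays a group limit every estimate.

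Groups were compared with limma 3.58.1 in R 4.3.3 over all kept features, with Benjamini-Hochberg adjustment. Line comparisons were unpaired (p under 0.005), comparisons with CTL were blocked on the replicate number (p under 0.006), and interactions had line and replicate number together as a block, each at a false discovery rate under 10%. Same-numbered samples deviated together (lowest correlation 0.36, 0.32, 0.25 and 0.19 in H1299shRAD9 DBP, BP, DBN and BN, 0.26 and 0.17 in H1299 DBP and BN), but not in every pair of H1299 BP (-0.18) and DBN (-0.11), where the numbers do not pair the samples by this check. The same-numbered array was the best match, however, for only 2, 3, 3 and 2 arrays in H1299shRAD9 DBP, BP, DBN and BN. In H1299 this count was 4, 2, 2 and 4 in DBP, BP, DBN and BN. By this count the numbers pair the H1299shRAD9 samples only in part. The pairing comes from the authors' matched samples and the numbers in the sample titles. P-values measure the spread between these samples, which the labels do not tie to separate cultures. RAD9A and the 5′ to 3′ index were compared between the lines by exact permutation tests in R. RAD9A passed the filter and was also in the limma fits, but its limma values are not given. Its permutation p-values are unadjusted and are not calls at the thresholds used for the members. Relations of levels with the index had permutation p-values over the arrays of a line, with ranks from scipy 1.17.1. Groups and replicate numbers were not kept in these permutations. The code was tested on simulated data.

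The members, lists and tests were chosen with earlier results of these data known. Named are ZNF480 in every comparison, all members past the thresholds, and the listed genes of the KRAB machinery that passed. A member below the filter was to be named if well above background on at least 20 of 25 arrays of a line and at most 5 of 25 of the other, and 0 were. Alternatives covered scaling, background correction, filters, the test, the authors' values, blocks and each replicate left out. The index as a covariate, the slide in place of the replicate number, the removal of single H1299 arrays and that of members dim in a line were added after the data had been seen.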

Additional observations from a re-analysis of the deposited data

Results flagged for a closer look

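In each group of 5 arrays, the highest or lowest level of each named feature was compared with the others by its gap relative to the whole range of the group. Of 229 groups, 17 had such a value standing apart, where chance gives about 1 in 20. In H1299 the values apart were -2.40 for ZNF480 in BN replicate 1, 2.05 for ZNF613 in DBN replicate 2, -0.37 for ZNF432 in DBP replicate 2, 2.20 for ZNF415 in BP replicate 2, 2.15 for ZNF331 in DBN replicate 2, 0.0869 for ZNF805 in DBN replicate 1, 0.21 for ZNF587 in DBP replicate 2, 2.69 for ZNF329 in DBN replicate 2, -1.57 for ZNF813 in BP replicate 2 and -1.50 for ZNF552 in BN replicate 2. The dimmer called feature of ZNF880 stood apart in DBN replicate 3 (-0.57) and BN replicate 5 (-0.46) of H1299. In H1299shRAD9 they were -1.95 for ZNF432 and -1.86 for the same feature of ZNF880 in BN replicate 5, -1.33 for ZNF671 in DBP replicate 3, 3.44 for ZNF497 in DBN replicate 5 and 4.93 for ZNF497 in BP replicate 4. Replicate 2 of H1299 DBP, BP and DBN, which gave 7 of these values, also had the lowest 5′ to 3′ index of the 50 arrays, and the part of the index in them was not tested.

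ZNF274 differed from CTL by 0.10 in H1299shRAD9 DBP and by -0.33 in H1299 DBP, with every pair of a line in the same direction and the lines opposite. This difference between the lines was not tested by that comparison of signs, and the interaction test called 0 members.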

How the results depend on the processing

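Members called in CTL between the lines numbered 16, and 10 with normexp, 9 with the authors' values, 10 with all groups in one fit, 9 with the slide as a random block and 7 with the index as a covariate. In H1299shRAD9 DBP 1 member became 2 with 75th percentile scaling or a filter of 4 of 5 arrays, and 0 with the authors' values, no filter, one fit, no replicate block, the index or the slide as a block. In BP 1 became 0 with no filter, one fit, no replicate block, the index or the slide. In DBN 2 became 1 with 75th percentile scaling, normexp, the authors' values, the 4 of 5 filter or no replicate block, 0 with no filter, the index or the slide, and 5 with one fit. In BN 0 became 4 with one fit. Between the lines, DBP (3) gave 9 with 75th percentile scaling, 5 with quantile normalization or no filter, 1 with normexp, 8 with one fit and 6 with the index. BP (5) gave 3 with the authors' values or a 1.3-fold criterion, 10 with one fit, 2 with the replicate block and 11 with the index. DBN (3) gave 1 with the authors' values or no filter, 13 with one fit and 5 without replicate 1 of H1299. BN (9) gave 0 with normexp and 5 with the authors' values. The causes of these changes were not tested. The authors' values hold 37 members only.

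With each replicate left out the counts ran from 9 to 16 between the CTL groups, 1 to 6 in DBP, 1 to 5 in BP, 0 to 4 in DBN and 4 to 11 in BN. In H1299shRAD9 against CTL they ran from 0 to 1 in DBP and BP and 0 to 3 in DBN, and for the interaction in DBN from 0 to 1. Over 49 named values, 598 of 824 alternatives kept the direction and the side of the threshold, 197 kept the direction and lost the call, 1 gained it and 28 changed sign, all of them of 6 differences of ZNF480 that passed in no setting. For H1299 BP minus CTL (0.05) these were -0.0724 with the slide as a random block and -0.228 with the index, and -0.426 to 0.358 with replicates left out. H1299 DBN minus CTL (-0.19) ran from -0.81 to 0.0842 with replicates left out. H1299 BN minus CTL (-0.01) was 0.0372 with 75th percentile scaling, 0.237 with normexp, 0.0163 with the authors' values, 0.224 with the slide as a block, and -0.219 to 0.0963. Between the lines, BP (0.02) was -0.168 with 75th percentile scaling, -0.0502 with normexp, -0.136 with the authors' values, and -0.262 to 0.173 with replicates left out. DBN (0.21) ran from -0.033 to 0.706. BN (0.01) was -0.121 with 75th percentile scaling, -0.00999 with quantile normalization, -0.171 with normexp, -0.138 with the authors' values, -0.0269 with the index, and -0.0981 to 0.239. ZNF814, ZNF610 and ZNF264 in CTL and ZNF814 in BP kept their call in every alternative run. ZNF480 ranged from -1.64 to -0.48 between the CTL groups and from 0.52 to 1.24, 0.68 to 1.66, 0.69 to 1.53 and 0.40 to 1.63 in H1299shRAD9 DBP, BP, DBN and BN. The slide as a random block could not be fitted for the line comparisons of irradiated groups, and as a fixed block not for any line comparison. Low signal limits the dim features, such as those of ZNF432, ZNF615 and ZNF671 in CTL.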

Other observations

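The 29 members that failed the filter on low signal enter none of the tests. Of these features, 24 were well above background on more arrays of H1299 than of H1299shRAD9, 3 on more arrays of H1299shRAD9 and 2 on equal numbers. The median was 7 of 25 arrays in H1299 and 5 of 25 in H1299shRAD9. The lines also differed in detection over all features, though not in every group. On CTL arrays 62.0% to 69.8% of all features were well above background in H1299 and 58.6% to 65.3% in H1299shRAD9. In DBP it was 63.1% to 68.7% and 55.4% to 62.9%, and in BN 64.1% to 66.7% and 60.8% to 73.1%. The counts of 24, 3 and 2 were not set against all features that failed, so they are not a result about the members. ZNF534 was above background on 0 arrays of either line. The largest gaps, named after their values were seen, were those of a feature of ZNF701, with 25 arrays of H1299 and 11 of H1299shRAD9, and of ZNF548, with 24 and 10. No level was compared for these genes.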
